A study of Mus musculus with 48 samples.

Results

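Cells that had activated *Nanog*-GFP during OKMS reprogramming were compared with the iPSCs that OKMS reprogramming finally gives. The comparison was made on the transcript rows of the read count table, with the columns labelled as E-CAD+ 3N+ OKMS (here 3NG+ cells, 3 libraries) against those labelled as OKMS iPSCs -dox (2 libraries), which are 5 of the 48 libraries of the series. 3NG+ cells were MEF-derived intermediates sorted as E-CAD+, CD44-, ICAM1+, and *Nanog*-GFP+ after culture with doxycycline and VitC, for 10 or 15 days according to the sample labels and on day 10 according to the methods of the study. The iPSCs were kept without doxycycline and are independent of it. All 5 libraries come from cells that carry the OKMS cassette, which encodes *Oct4*, a short form of *Klf4*, *Myc*, and *Sox2* on a single doxycycline-inducible transcript. The cassette was targeted together with rtTA and an mOrange reporter into an intron of *Sp3*, and GFP was placed in 1 *Nanog* allele (TNG). The transgenic MEFs came from chimeric embryos and were diluted with WT MEFs before reprogramming, so WT cells were present in the culture from which 3NG+ cells were sorted. Sort, day, doxycycline, and VitC all differ between the groups and cannot be told apart from the state of the cells. The labels do not say that replicates came from separate cultures or that the 2 iPSC libraries came from separate lines. P-values therefore measure only the spread between replicate libraries, estimated over all 48 libraries of the series, and that spread may be technical.

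Reprogramming replaces the program of a fibroblast with that of a pluripotent cell. Fibroblasts secrete collagens and proteoglycans and express mesenchymal transcription factors, and these genes are shut down as cells become epithelial and then pluripotent. Pluripotency in culture is held by a network around *Oct4* (*Pou5f1*), *Sox2*, *Nanog*, and *Esrrb*, and by signals from LIF, BMP, and FGF that leave their own marks on transcription, such as *Socs3* for LIF, *Id1* for BMP, and *Dusp6* and the *Sprouty* genes for FGF and ERK. In ESC and iPSC cultures a small and changing fraction of cells also switches on *Zscan4* and other genes of the early cleavage embryo, a state called 2-cell-like.

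Libraries of 3NG+ cells held 7929689, 1429717, and 6989528 reads on transcripts, and iPSC libraries held 4849864 and 5613857, within the range of 1429717 to 14174725 over the series. Levels are given as CPM, the count of a gene scaled to the total transcript count of the library. Since the 5′ ends of transcripts were sequenced, CPM does not scale with transcript length. A count of 0 in 3NG+ replicate 2, the shallowest library of the series, allows a level of up to 2.10 CPM (3 reads), against 0.378 to 0.619 CPM in the other 4 libraries. Floors and intervals cover counting error only. Mitochondrial transcripts took 6.56% to 9.78% of the reads in 3NG+ cells and 7.46% and 8.21% in iPSCs.

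None of the genes that define the sort and none of the listed genes of the pluripotency network passed the test, and some of them, such as *Icam1*, *Cdh1*, and *Dppa3*, had ranges that did not overlap. *Nanog* was at 90.04, 81.8, and 97.3 CPM in the 3NG+ libraries and at 47.2 and 131 CPM in the iPSC libraries, and the groups overlapped. *Cdh1*, which encodes E-CAD, was at 106 to 151 CPM in 3NG+ cells and at 76.9 and 82.3 CPM in iPSCs, with a log2 fold change of 0.81 ± 0.45 (SE) and an FDR of 0.48. *Icam1* was at 9.46, 4.20, and 14.2 CPM in 3NG+ cells and at 57.1 and 50.4 CPM in iPSCs. All 3 sorted libraries lay below both iPSC libraries, although ICAM1 protein was a criterion of the sort, and the log2 fold change of -2.39 ± 0.62 missed the threshold in edgeR's quasi-likelihood test with Benjamini-Hochberg adjustment (FDR = 0.060). The call depended on the setting. It passed with DESeq2's Wald test (FDR = 0.029) and with only the 5 libraries compared (FDR = 0.026), and missed the threshold in all 5 fits that left out a library (FDR = 0.082 to 0.39) and without transcripts of under 50% unique reads (FDR = 0.081). *Cd44* was at 2.90, 28.0, and 1.72 CPM in 3NG+ cells and at 14.4 and 0.534 CPM in iPSCs, so that 1 library of each group stood above the others.

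Among the cassette factors, *Pou5f1* was at 499 to 879 CPM in 3NG+ cells and at 569 and 839 CPM in iPSCs, *Sox2* at 141 to 237 against 176 and 255 CPM, *Klf4* at 15.4 to 25.6 against 19.6 and 24.9 CPM, and *Myc* at 12.2 to 28.7 against 7.42 and 14.3 CPM. None of the 4 was called, and reads of the cassette and of the endogenous genes cannot be told apart in these counts. None of 19 regulators of naive pluripotency and none of 20 genes of late pluripotency was called, with median log2 fold changes of 0.07 and 0.02 beside 0 over all genes. *Dppa5a*, the most abundant gene of the late list, was at 12955 to 14653 CPM in 3NG+ cells and at 14758 and 14769 CPM in iPSCs, against 5.16 CPM in OKMS MEFs. *Esrrb* was at 88.1 to 98.9 CPM against 56.9 and 107 CPM, and *Zfp42*, which encodes REX1, at 539 to 780 against 659 and 1082 CPM. *Dppa3* was at 1127, 498, and 1085 CPM in 3NG+ cells and at 482 and 187 CPM in iPSCs, without overlap, and was not called (log2 fold change 1.46 ± 0.79, FDR = 0.46). *Sp3*, the gene that holds the cassette, was at 11.2 to 22.2 CPM against 7.22 and 21.9 CPM.

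Between 3NG+ cells and iPSCs, 96 of 15630 genes were called at an FDR of at most 0.05, which is 0.614% of the genes tested. Higher in 3NG+ cells were 49 genes (0.313%), among them genes for collagens and proteoglycans, and lower were 47 genes (0.301%), among them *Zscan4* copies and other transcripts of the 2-cell-like state. The median log2 fold change was 4.15 among the former and -5.02 among the latter, and the called values were chosen by this test. The CPM ranges of the groups did not overlap in 46 of the 49 higher genes and in all 47 lower genes, while over all genes tested 8.07% had all 3NG+ libraries above both iPSC libraries and 13.4% had them below. At an unadjusted p under 0.05, 891 genes were higher and 974 lower. The libraries decided how many genes passed. Without iPSC replicate 1 only 10 genes were called, 9 higher and 1 lower, and without iPSC replicate 2 there were 148. Without 3NG+ replicate 1, 2, or 3 there were 32, 61, and 59. In each of these 5 fits all 96 genes kept their direction, which was largely fixed in advance. The genes were called with these same libraries, and nearly all of them had ranges apart.

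**Figure D1:**
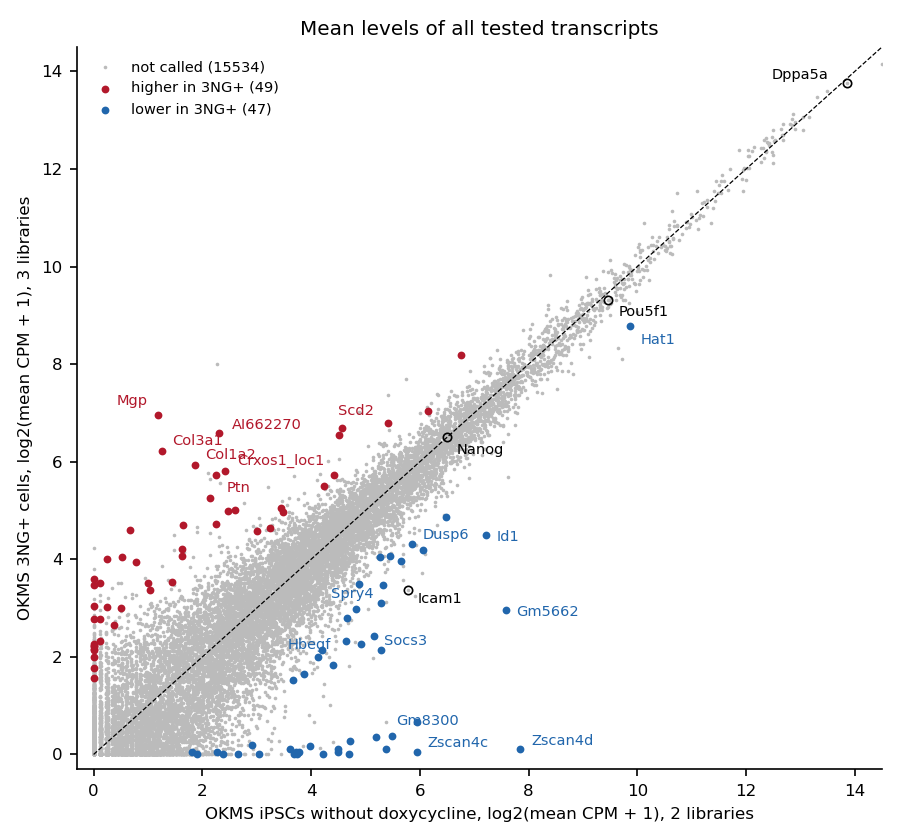
Mean level of each of 15630 tested genes in OKMS iPSCs without doxycycline (horizontal axis, 2 libraries) and in OKMS 3NG+ cells (vertical axis, 3 libraries), both as log2(mean CPM + 1), with genes called higher and lower in colour and the diagonal as a line of equal level. *Mgp* and *Col3a1* stand far above the diagonal and *Zscan4d* far below it, while most genes lie along it.

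Genes that encode proteins of the extracellular matrix, grouped after their values were seen, were among the higher genes. *Mgp*, the matrix Gla protein that keeps cartilage and vessels from calcifying (chr6:136872435-136875823, GRCm38.p6), was at 227, 65.0, and 77.5 CPM in 3NG+ cells and at 1.65 and 0.891 CPM in iPSCs. All 3 sorted libraries stood far above both iPSC libraries, and the log2 fold change was 6.67 ± 0.92 (FDR = 5.5e-05). *Col3a1*, a fibrillar collagen of loose connective tissue (chr1:45311538-45349706), was at 130, 41.3, and 48.2 CPM against 2.06 and 0.713 CPM, a log2 fold change of 5.81 ± 0.72 (FDR = 9.2e-06). The chains of type I collagen were also called. *Col1a2* was at 62.8, 76.2, and 41.1 CPM against 3.30 and 1.96 CPM (4.53 ± 0.67 on the log2 scale, FDR = 0.00013), and *Col1a1* at 39.6, 47.6, and 24.8 CPM against 5.77 and 1.07 CPM (3.46 ± 0.69, FDR = 0.0075). *Col5a2*, a chain of the collagen that sets fibril width, was at 16.1, 26.6, and 9.59 CPM against 3.09 and 1.07 CPM (3.02 ± 0.70, FDR = 0.031). None of these 5 genes overlapped between the groups, as was so for 46 of the 49 higher genes. Over all genes tested 8.07% had all 3NG+ libraries above both iPSC libraries.

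Of the small leucine-rich proteoglycans, which bind collagen fibrils, *Ogn*, *Aspn*, *Bgn*, and *Dcn* were called as well. *Ogn* (osteoglycin) was at 14.3, 8.39, and 10.4 CPM in 3NG+ cells and had no read in either iPSC library, so that it was at least 42.2-fold higher in 3NG+ cells, counting 3 reads over the iPSC group. *Aspn* (asporin), its neighbor on chromosome 13, was at 5.17, 0.699, and 4.58 CPM and also had no read in iPSCs, at least 15.8-fold higher. *Bgn* (biglycan) was at 38.8, 38.5, and 16.9 CPM against 7.42 and 2.67 CPM (log2 fold change 2.65 ± 0.62, FDR = 0.031), and *Dcn* (decorin) at 27.9, 4.20, and 10.9 CPM against 0.206 and 1.25 CPM (4.39 ± 1.06, FDR = 0.035). Other matrix proteins among the higher genes were *Postn* (periostin), at 23.3, 12.6, and 9.59 CPM against 0.206 and 0.178 CPM (6.27 ± 1.13, FDR = 0.0025), and *Fbn2* (fibrillin 2, a component of elastic microfibrils), at 3.03, 9.79, and 4.72 CPM against 0 and 0.178 CPM (5.56 ± 1.22, FDR = 0.020).

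These levels were a small part of those in fibroblasts. As a share of the mean CPM in OKMS MEFs, 3NG+ cells held 15.7% for *Mgp*, 7.34% for *Col3a1*, 7.02% for *Col1a2*, 5.49% for *Col1a1*, 4.84% for *Ogn*, and 3.63% for *Bgn*, whereas iPSCs held 0.162%, 0.139%, 0.307%, 0.503%, 0%, and 0.583%. *Postn* stood out with 36.7% in 3NG+ cells. The E-CAD+ 3NG- cells of the same reprogramming, the step before *Nanog*-GFP, had similar levels, with mean values of 119 CPM for *Mgp*, 71.4 CPM for *Col3a1*, and 74.1 CPM for *Col1a2*. Between 3NG+ and 3NG- cells the log2 fold changes of these 3 genes were 0.29, 0.28, and -0.12, and none was called (FDR = 0.81, 0.76, and 0.94). In TNG OKMS ESCs the mean levels were 0.109, 0.467, and 0.193 CPM. In bulk samples, more cells of a type and more RNA per cell cannot be told apart.

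**Figure D2:**
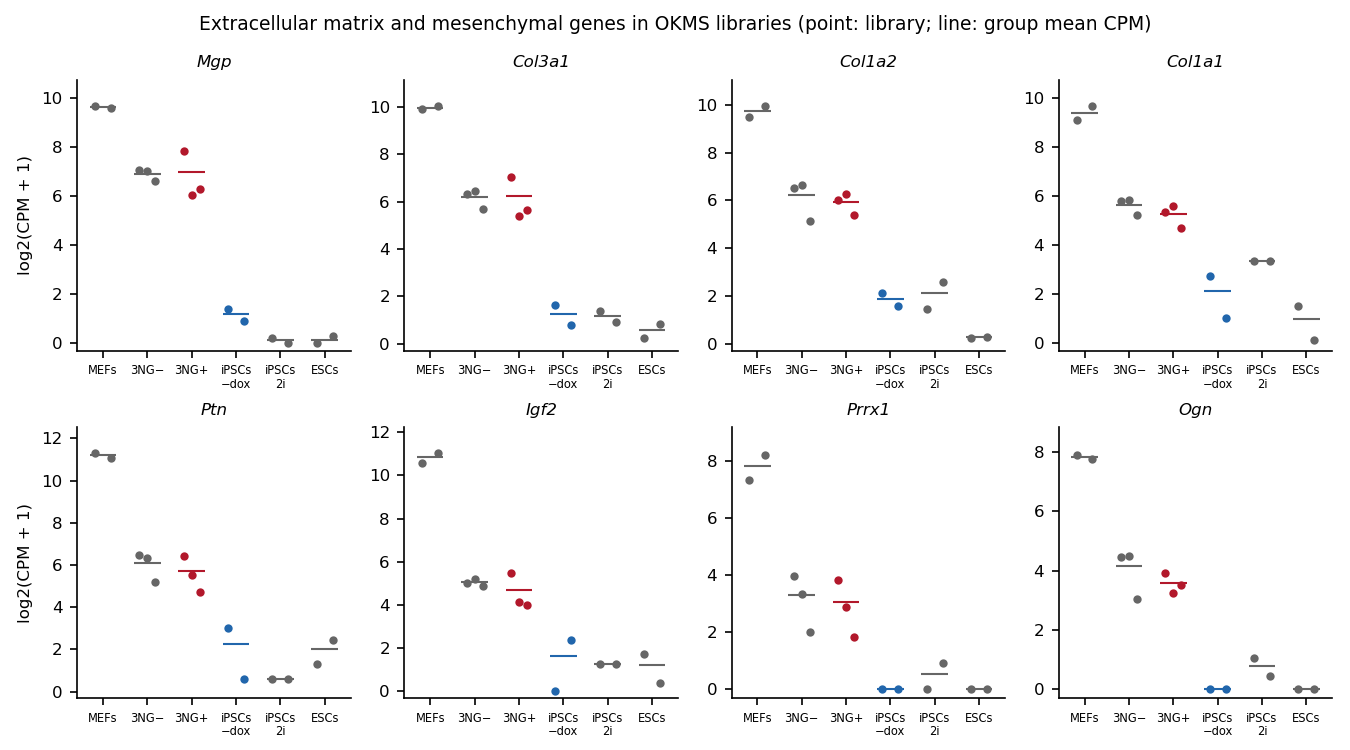
CPM per library, as log2(CPM + 1), of matrix genes in OKMS MEFs, E-CAD+ 3NG- cells, 3NG+ cells, iPSCs without doxycycline, iPSCs in 2i medium, and TNG OKMS ESCs, where points are libraries and lines group means. 3NG+ and 3NG- libraries lie at like heights, below MEFs and above iPSCs and ESCs, as for *Mgp* with 119 CPM in 3NG- cells and 782 CPM in MEFs.

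Of the 39 genes in a fibroblast list, 7 rose (*Col1a1*, *Col1a2*, *Col3a1*, *Col5a2*, *Postn*, *Dcn*, and *Prrx1*), none fell, and 32 did not pass the test. Their median log2 fold change was 1.03, with 33 of 39 above 0, beside a median of 0 and 48.2% above 0 over all genes tested. Genes near 0 in iPSCs entered the test through groups where they are high, such as MEFs, so part of the shared sign was fixed by the filter. Filtering on only the 5 libraries compared left 34 tested (4 called). Of all genes tested 0.313% were called higher. Summed over the list, the level was 1646, 1827, and 1480 CPM in 3NG+ cells, 1204 and 980 CPM in iPSCs, and 37948 and 40380 CPM in OKMS MEFs. The groups did not overlap, but the sum rests on abundant genes that iPSCs also express. *Prrx1*, a homeobox gene of limb and craniofacial mesenchyme, was at 12.99, 6.29, and 2.58 CPM and had no read in iPSCs (at least 27.7-fold higher). The number called was 3 without iPSC replicate 1, 3 without iPSC replicate 2, and 4 without 3NG+ replicate 1. *Col1a2*, *Col3a1*, *Mgp*, and *Ogn* were called in all 5 fits that left out a library, *Postn*, *Col1a1*, and *Aspn* in 4, *Fbn2* in 3, *Dcn* and *Prrx1* in 2, and *Col5a2* and *Bgn* in 1.

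Markers of another cell type varied within the 3NG+ group. *Lyz2*, which encodes lysozyme M of macrophages, was at 56.1, 683, and 29.2 CPM in 3NG+ cells and at 0 and 7.66 CPM in iPSCs (log2 fold change 5.98 ± 1.65, FDR = 0.091). It was not particular to 3NG+ cells, with 110 and 99.1 CPM in OKMS MEFs and 344, 331, and 18.1 CPM in E-CAD+ 3NG- cells. Summed over 15 macrophage genes, the level was 90.5, 813, and 51.9 CPM in 3NG+ cells and 42.5 and 43.3 CPM in iPSCs. The sum ranged from 33.7 to 419 CPM in 3NG- cells and from 132 to 150 CPM in OKMS MEFs. None of the 15 was called, their median log2 fold change was 4.13, and 13 were above 0. The filter over all 48 libraries also kept genes near 0 in iPSCs, which may have set part of this shared sign. Of the defining markers, *Ptprc* (CD45) had no read in 3NG+ replicates 2 and 3 or in iPSCs, and *Csf1r* was at or below 0.699 CPM in all 5 libraries. In replicate 2, the shallowest library, a count of 0 allows up to 2.10 CPM, so these low values carry little weight there. Replicate 2, with the highest macrophage sum, also had the highest fibroblast sum and the most *Col1a1* and *Col1a2*, while *Mgp*, *Col3a1*, and *Postn* were highest in replicate 1. Without replicate 2, 6 of the 7 fibroblast genes were called. The part of such cells in the other differences was not tested.

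*Ptn*, *Igf2*, and *Cxcl12*, each of which encodes a secreted factor, were also called higher in 3NG+ cells, while *Hbegf*, a ligand of the EGF receptor, was called lower. *Ptn* (pleiotrophin, a secreted heparin-binding factor) was at 83.9, 45.5, and 25.8 CPM in 3NG+ cells and at 7.01 and 0.534 CPM in iPSCs (log2 fold change 3.85 ± 0.78, FDR = 0.011), which compares with 2345 CPM in OKMS MEFs. *Igf2*, the paternally expressed fetal growth factor, was at 43.5, 16.8, and 14.9 CPM against 0 and 4.28 CPM (3.59 ± 0.86, FDR = 0.035), and with 1818 CPM in MEFs. *Cxcl12*, the chemokine that stromal cells release to attract CXCR4+ cells, was at 25.2, 37.1, and 7.58 CPM against 0.825 and 0.356 CPM (5.25 ± 1.32, FDR = 0.049). Of the 5 fits that left out a library, *Ptn* and *Igf2* were called in 3 and *Cxcl12* in 1, and without iPSC replicate 1 neither *Igf2* nor *Cxcl12* was called. Of 34 imprinted genes tested outside the *Dlk1-Dio3* cluster, *Igf2* and *Dcn* were called higher and *Peg10* lower, with a median log2 fold change of -0.07. Over all genes tested 0.313% were called higher and 0.301% lower.

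*Tcf12*, *Hmga2*, *Igf2bp2*, *Bcor*, and *Tfap2a*, which act in transcription, chromatin, or RNA binding, were also among the higher genes. *Tcf12*, a basic helix-loop-helix factor of mesoderm and neural tissue (chr9:71844252-72111893), was at 27.0, 28.7, and 36.2 CPM in 3NG+ cells and at 6.39 and 2.67 CPM in iPSCs. Its log2 fold change was 2.80 ± 0.44 (FDR = 0.00034), it was called in all 5 fits that left out a library, and its level in 3NG+ cells was 47.1% of that in OKMS MEFs. *Hmga2*, an architectural chromatin protein of embryonic tissue that *let-7* represses, was at 34.6, 19.6, and 22.2 CPM against 2.68 and 4.81 CPM (2.83 ± 0.43, FDR = 0.00027). *Igf2bp2*, an RNA-binding protein that HMGA2 is known to induce, was at 46.2, 29.4, and 56.5 CPM against 12.8 and 23.2 CPM (1.37 ± 0.33, FDR = 0.035). *Bcor*, a corepressor of the Polycomb group on the X chromosome, was at 36.4, 23.1, and 31.8 CPM against 11.3 and 9.08 CPM (1.63 ± 0.40, FDR = 0.040). *Tfap2a* was the single member called among 14 trophoblast genes, beside 0.313% called higher over all genes tested. It was at 6.31, 0.699, and 3.15 CPM and had no read in iPSCs, at least 15.6-fold higher. *Hmga2* lost its call without iPSC replicate 1 (FDR = 0.064), *Igf2bp2* and *Tfap2a* were called in 2 of the 5 fits that left out a library, and *Bcor* in 1, and without iPSC replicate 1 none of these 4 was called.

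Not all higher genes were also high in MEFs. Of the 49 higher genes, 32 had a higher mean CPM in OKMS MEFs than in 3NG+ cells, 14 of them at least 10 times higher. Among the 47 lower genes the same counts were 27 and 14, so they do not set the higher genes apart. The share over all genes tested was not computed. *AI662270* (chr11:83223576-83226584) had no read in OKMS MEFs, rose from a mean of 13.2 CPM in 3NG- cells to 109, 77.6, and 98.1 CPM in 3NG+ cells, and was at 3.09 and 4.81 CPM in iPSCs. The difference from iPSCs was 4.63 ± 0.81 on the log2 scale (FDR = 0.0019), and the difference from 3NG- cells was 3.06 ± 0.62 (FDR = 0.0016). All 3 sorted libraries were thus above both the preceding and the final population. *Snora33*, a small nucleolar RNA that guides pseudouridylation (chr10:23785347-23785451), behaved alike, with 110, 113, and 82.1 CPM in 3NG+ cells, 26.8 and 18.7 CPM in iPSCs, and a mean of 13.1 CPM in 3NG- cells (log2 fold changes of 2.18 ± 0.52 and 3.15 ± 0.47, FDR = 0.035 and 3.7e-05). It was not called against iPSCs in any of the 5 fits that left out a library. *Pglyrp1*, a peptidoglycan recognition protein of innate immunity, was at 11.2, 13.99, and 21.0 CPM against 0 and 0.891 CPM (5.05 ± 1.03, FDR = 0.011) and at a mean of 64.0 CPM in OKMS iPSCs in 2i medium. *Scd2*, a fatty acid desaturase, was at 90.04, 118, and 120 CPM against 29.7 and 53.1 CPM (1.44 ± 0.27, FDR = 0.0046), and reached a mean of 346 CPM in 2i medium. Other genes with large changes were *BC064078* (at least 39.5-fold higher), *Gm7120* (log2 fold change 6.65 ± 1.51), *Stc2* (stanniocalcin 2, 5.12 ± 1.14), and *Tmcc1* (4.15 ± 1.01). *AI662270*, *Pglyrp1*, and *Scd2* were called in 4 of the 5 fits that left out a library, *BC064078* and *Stc2* in 2, and *Gm7120* and *Tmcc1* in 1, and without iPSC replicate 1 none of these 7 was called.

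*Zscan4* copies had few or no reads in 3NG+ cells and were read in both iPSC libraries. *Zscan4* proteins are zinc finger factors of the cleavage embryo, where they act in telomere upkeep, and the copies lie together on chromosome 7. Sequences of 250 bases just 5′ of the annotated starts of *Zscan4c* (chr7:11005495-11005744, plus strand), *Zscan4d* (chr7:11166149-11166398, minus strand), and *Zscan4f* (chr7:11397665-11397914, plus strand) were taken from RefSeq (GRCm38.p6) to show how alike the copies are. The letters TATAAA are in capitals, and each flank is written 5′ to 3′ in the direction of its gene.
Zscan4c: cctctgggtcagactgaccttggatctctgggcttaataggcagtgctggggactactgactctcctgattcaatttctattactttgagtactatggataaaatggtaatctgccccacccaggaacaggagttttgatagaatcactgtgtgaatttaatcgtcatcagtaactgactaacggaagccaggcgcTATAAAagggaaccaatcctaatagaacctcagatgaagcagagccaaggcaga
Zscan4d: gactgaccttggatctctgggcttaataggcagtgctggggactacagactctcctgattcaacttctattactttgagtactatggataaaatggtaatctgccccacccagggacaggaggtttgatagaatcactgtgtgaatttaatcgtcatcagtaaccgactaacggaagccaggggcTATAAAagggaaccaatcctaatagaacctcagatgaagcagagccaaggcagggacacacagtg
Zscan4f: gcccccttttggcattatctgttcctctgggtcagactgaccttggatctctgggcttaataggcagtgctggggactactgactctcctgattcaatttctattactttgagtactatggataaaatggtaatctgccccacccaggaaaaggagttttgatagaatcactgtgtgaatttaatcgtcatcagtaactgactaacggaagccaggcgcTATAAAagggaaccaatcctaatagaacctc
At the best offset without gaps, the flank of *Zscan4c* shared 99.6% of 227 bases with that of *Zscan4f* and 97.1% of 239 bases with that of *Zscan4d*. TATAAA began 54, 65, and 31 bases before the annotated start, and it occurs in the direction of the gene in 7.59% of 32851 RefSeq windows of this length. A match in letters does not show a site in use. Because the copies are so alike, only 86.1% of the reads on *Zscan4c*, 3.93% of those on *Zscan4d*, and 0.424% of those on *Zscan4f* mapped to a single place, and the division of reads among copies is uncertain.

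*Zscan4d* was at 0.252, 0, and 0 CPM in 3NG+ cells, which is 2 reads in all, and at 426 and 33.3 CPM in iPSCs. The log2 fold change was -10.70 ± 1.16 (FDR = 1.9e-05), and -7.84 without iPSC replicate 1 (FDR = 0.00078). *Zscan4c*, the copy with mostly unique reads, was at 0.126, 0, and 0 CPM against 109 and 11.8 CPM (-9.62 ± 1.36, FDR = 0.00053), and *Zscan4f* at 1.77, 0, and 0 CPM against 105 and 16.03 CPM (-6.25 ± 1.07, FDR = 0.0048). The 2 iPSC libraries differed widely, replicate 1 being higher in all 3 genes. *AF067061*, another transcript of the 2-cell stage, had no read in 3NG+ cells and was at 49.1 and 1.07 CPM in iPSCs, so that nearly all of its reads came from replicate 1. Its call (FDR = 0.012) was lost without that library (FDR = 0.52) and with DESeq2's Wald test (FDR = 0.36). Of 14 genes tested in the 2-cell-like list, 5 fell (*Zscan4b*, *Zscan4c*, *Zscan4d*, *Zscan4f*, and *AF067061*), none rose, and 9 did not pass the test, beside 0.301% called lower over all genes. All 14 log2 fold changes were below 0, with a median of -7.90. Genes near 0 in 3NG+ cells entered the test through groups where they are high, so the shared sign was largely fixed by the filter. Filtering on only the 5 libraries compared left 6 tested (4 called). Leaving out transcripts of under 50% unique reads left 4 tested (1 called), so the 14 do not count as independent genes. Summed over the list, the level was 3.40, 0, and 0 CPM in 3NG+ cells and 828 and 80.5 CPM in iPSCs.

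Other Gm and LOC transcripts, many with reads shared among copies, were lower too. *Gm8300* (chr12:87514316-87518265), with 90.7% unique reads, was at 0.631, 0, and 0.286 CPM in 3NG+ cells and at 81.9 and 5.52 CPM in iPSCs (-6.69 ± 1.23, FDR = 0.0055). Of the 47 lower genes, 15 had less than 50% unique reads, among them *Gm5662*, *Gm2022*, *Gm13043*, and copies at several places on chromosome 10, and these do not count as independent genes. With all transcripts of less than 50% unique reads left out, 25 lower genes remained, of which *Zscan4c* was the single member of the 2-cell-like list. *Gm8300*, which is not in that list, also kept its call.

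Other populations place these values. In OKMS MEFs and in 3NG- cells *Zscan4c*, *Zscan4d*, and *AF067061* had no read in any library. TNG OKMS ESCs were at 71.2 and 121 CPM for *Zscan4d*, and the difference of 3NG+ cells from ESCs was -9.18 ± 1.16 on the log2 scale (FDR = 3.9e-05), while the difference of iPSCs from ESCs was 1.52 ± 0.77 (FDR = 0.41). In 2i medium OKMS iPSCs were at 10.4 and 3.51 CPM, and iPSCs without doxycycline were higher by 5.23 ± 0.92 (FDR = 0.0058). Leaving out iPSC replicate 1, *Zscan4d* alone of the 5 was still called, whereas *Zscan4c* had an FDR of 0.0503. A few cells with many transcripts and many cells with few cannot be told apart in bulk RNA.

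**Figure D3:**
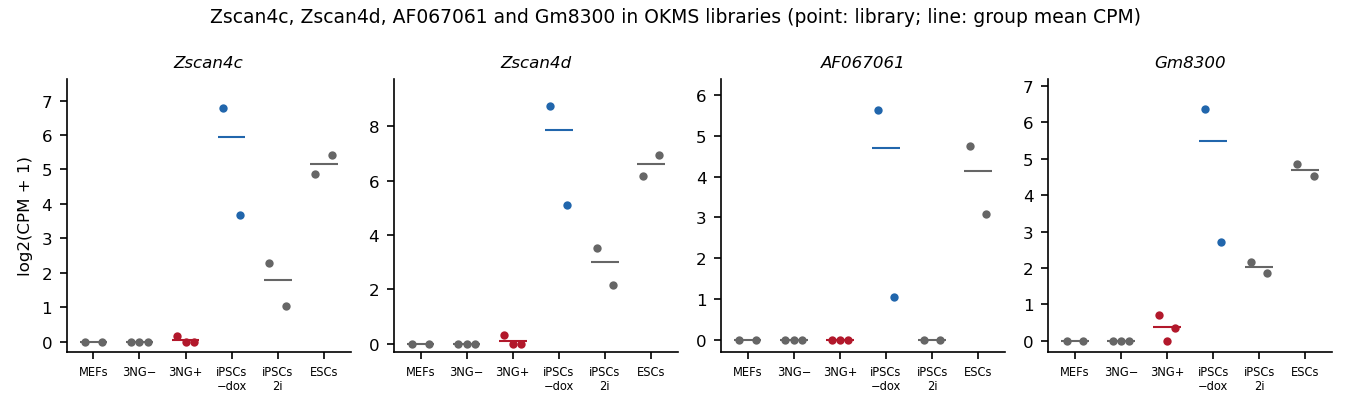
CPM per library, as log2(CPM + 1), of *Zscan4c*, *Zscan4d*, *AF067061*, and *Gm8300* in 6 OKMS populations, where points are libraries and lines group means. MEF, 3NG-, and 3NG+ libraries are at or near 0, ESCs and the iPSCs without doxycycline are higher, and iPSC replicate 1 (426 CPM for *Zscan4d*) stands above replicate 2 (33.3 CPM).

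Single feedback or target genes of the LIF, BMP, and FGF pathways were called lower in 3NG+ cells than in iPSCs, namely 1 of 16 LIF and STAT3 genes, 1 of 19 BMP and Id genes, and 2 of 19 FGF and ERK response genes. Over all genes tested 0.301% were called lower. With 34 lists counted, 1 or 2 calls in a list are not a result about a pathway. The median log2 fold changes of these lists lay between -0.16 and 0.06. All of the calls described here were lost without iPSC replicate 1. *Socs3*, which LIF induces through STAT3 and which in turn blocks the receptor, was at 2.02, 3.50, and 7.58 CPM in 3NG+ cells and at 49.3 and 20.1 CPM in iPSCs (log2 fold change -2.91 ± 0.69, FDR = 0.035). *Id1*, a direct target of BMP signaling that inhibits helix-loop-helix factors (chr2:152736251-152737410), was at 20.8, 22.4, and 21.7 CPM in 3NG+ cells and at 235 and 60.6 CPM in iPSCs (-2.76 ± 0.66, FDR = 0.035). The 3 sorted libraries were close together for *Id1*, and the 2 iPSC libraries were far apart. *Dusp6*, the phosphatase that switches off ERK (chr10:99263231-99267489), was at 16.9, 16.1, and 24.0 CPM against 78.8 and 34.7 CPM (-1.53 ± 0.38, FDR = 0.040). *Spry4*, an inhibitor of FGF signaling, was at 7.31, 11.2, and 4.44 CPM against 49.5 and 26.5 CPM (-2.40 ± 0.52, FDR = 0.020), and *Hbegf*, a ligand of the EGF receptor, at 1.77, 6.99, and 3.29 CPM against 28.7 and 19.2 CPM (-2.81 ± 0.53, FDR = 0.0046). In each of these 5 genes both iPSC libraries stood above all 3 sorted libraries, as in all 47 lower genes and in 13.4% of all genes tested.

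*Id1* and *Socs3* were also lower on average in 3NG+ cells than in MEFs, 3NG- cells, or ESCs. *Id1* was at 903 and 1031 CPM in OKMS MEFs, at 84.3 to 103 CPM in 3NG- cells, and at 157 and 169 CPM in TNG OKMS ESCs. *Socs3* was at 30.4 and 40.3 CPM in MEFs, at 17.0 to 21.2 CPM in 3NG- cells, and at 46.6 and 52.4 CPM in ESCs. The step from 3NG- to 3NG+ cells was -1.87 ± 0.61 for *Id1* and -1.82 ± 0.65 for *Socs3* on the log2 scale, and neither passed the threshold (FDR = 0.056 and 0.082). Against ESCs, 3NG+ cells were lower in *Id1* (-2.61 ± 0.66, FDR = 0.020), *Socs3* (-3.14 ± 0.69, FDR = 0.0073), *Dusp6* (-1.66 ± 0.37, FDR = 0.0088), and *Spry4* (-3.37 ± 0.52, FDR = 9.0e-05), and no difference was called between iPSCs and ESCs in these 4 genes (FDR = 0.44 to 1). The comparisons with iPSCs and with ESCs share the 3NG+ libraries.

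Most other members of these pathways did not pass the test. Of 19 FGF and ERK response genes, *Dusp6* and *Spry4* fell and none rose, with a median log2 fold change of -0.16, and *Spry2*, *Etv4*, and *Etv5* were at -0.79, -1.08, and -0.16 (FDR = 0.57, 0.56, and 0.91). Of 16 LIF and STAT3 genes, *Socs3* alone was called (median 0.02), with *Stat3* at 10.8 to 28.7 CPM against 10.3 and 20.7 CPM. Of 19 BMP and Id genes, *Id1* alone was called (median 0.06), with *Id2* at -0.72 ± 0.53 (FDR = 0.61) and *Id3* at -0.24 ± 0.64 (FDR = 0.95). The calls also depended on the iPSC libraries. Without iPSC replicate 1, which had the higher value of all 5 genes, none of them passed the threshold, and the FDR was 0.56 for *Socs3*, 0.74 for *Id1*, 0.78 for *Dusp6*, 0.39 for *Spry4*, and 0.15 for *Hbegf*. In 2i medium, which holds inhibitors of MEK and GSK3, OKMS iPSCs had 3.17 and 4.92 CPM of *Dusp6*, 0.528 and 0 CPM of *Spry4*, and 2.99 and 6.32 CPM of *Id1*, less than 3NG+ cells, but 25.0 and 16.2 CPM of *Socs3*, more than 3NG+ cells.

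**Figure D4:**
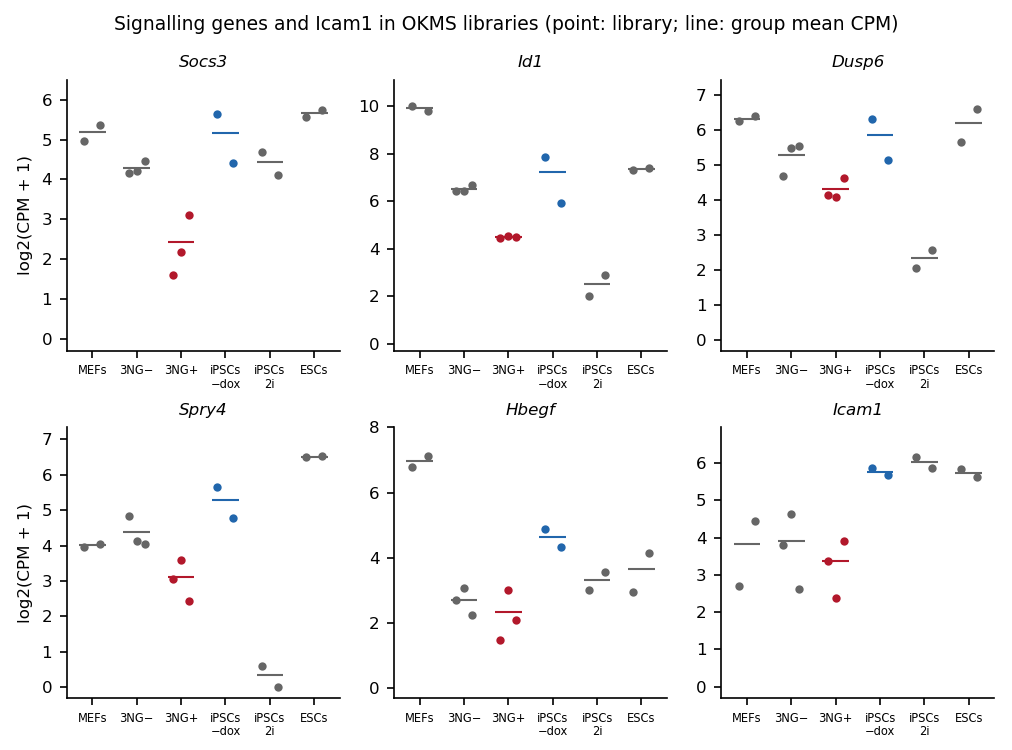
CPM per library, as log2(CPM + 1), of feedback and target genes of signaling pathways in 6 OKMS populations, where points are libraries and lines group means. *Id1* is at 20.8 to 22.4 CPM in 3NG+ cells, below the other populations apart from iPSCs in 2i medium, where *Id1*, *Dusp6*, and *Spry4* are lower still.

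The 5′ flank of *Socs3* is shown because the factor that LIF activates is known to bind the palindrome TTCNNNGAA. The 250 bases before the annotated start (chr11:117969367-117969616, minus strand, GRCm38.p6, RefSeq) hold these letters once, 154 bases before the start, and they are in capitals.
Socs3: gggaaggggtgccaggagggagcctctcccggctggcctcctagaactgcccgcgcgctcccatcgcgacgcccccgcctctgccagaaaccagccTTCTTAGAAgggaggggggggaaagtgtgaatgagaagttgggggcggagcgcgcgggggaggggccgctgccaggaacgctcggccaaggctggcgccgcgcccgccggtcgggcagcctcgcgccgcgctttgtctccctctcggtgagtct
The same letters occur in 7.02% of the 32851 windows of this length (the palindrome reads alike on both strands), and the match is a description of the sequence, not a measurement of binding.

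Single genes with other roles were also lower in 3NG+ cells. *Hat1*, the acetyltransferase of newly made histone H4, was at 521, 320, and 481 CPM in 3NG+ cells and at 1084 and 790 CPM in iPSCs (-1.05 ± 0.26, FDR = 0.036). *Orc4*, of the origin recognition complex, was at 11.6, 18.9, and 16.02 CPM against 43.5 and 31.4 CPM (-1.28 ± 0.31, FDR = 0.035), and *Rad51c*, a recombination protein, at 5.67, 9.09, and 3.15 CPM against 28.9 and 19.8 CPM (-2.09 ± 0.51, FDR = 0.035). None of 30 G1 cyclin and replication genes in the list was called, with a median of 0.04. *Sgcb* (beta-sarcoglycan) and *Dysf* (dysferlin), of the muscle membrane, had no read in 3NG+ cells and were at 4.33 and 6.23 CPM and at 2.89 and 5.52 CPM in iPSCs, at least 29.2-fold and 23.4-fold higher in iPSCs. *1700026L06Rik* had no read in 3NG+ cells and was at 7.63 and 6.95 CPM in iPSCs, at least 39.6-fold higher there. Of the 5 fits that left out a library, *Sgcb* and *1700026L06Rik* were called in none (FDR = 0.051 to 0.25), *Hat1* and *Orc4* in 1, and *Rad51c* and *Dysf* in 2, and without iPSC replicate 1 none of these 6 was called.

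*P4ha2*, a prolyl hydroxylase that modifies collagen, was the single hypoxia gene called of 18, beside 0.301% called lower over all genes tested. It was at 0.378, 3.50, and 3.86 CPM in 3NG+ cells and at 22.1 and 18.3 CPM in iPSCs (-3.06 ± 0.73, FDR = 0.035). Its direction was thus opposite to that of the collagens. *Peg10*, an imprinted gene derived from a retrotransposon, was at 12.2, 23.8, and 15.9 CPM against 88.0 and 42.6 CPM (-1.95 ± 0.46, FDR = 0.031). *Usp11*, a deubiquitinase on the X chromosome, was at 2.77, 0, and 3.58 CPM against 14.6 and 12.5 CPM (-2.35 ± 0.54, FDR = 0.031). *Fbxo2*, *Sbsn*, *Arl4d*, *Bdh2*, *Slc12a4*, and *1700011J10Rik* were also named by their size of change, with log2 fold changes of -5.03, -6.20, -3.34, -2.94, -2.76, and -2.28, and in *Arl4d* and *Sbsn* iPSC replicate 1 (70.7 and 27.6 CPM) was far above replicate 2 (4.81 and 1.78 CPM). None of these 9 genes was called without iPSC replicate 1. *Slc12a4* was called in none of the 5 fits that left out a library, *Fbxo2*, *Arl4d*, and *Bdh2* in 1, and the other 5 in 2.

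Genes of the pluripotent states that follow the naive state did not pass the test. Of 14 formative and primed epiblast genes none was called, although 13 had a log2 fold change above 0 and the median was 2.21. The filter over all 48 libraries also kept genes near 0 in iPSCs, which may have set part of this shared sign. *Zic2* was at 20.8, 18.2, and 23.7 CPM in 3NG+ cells and at 1.65 and 6.23 CPM in iPSCs (2.46, FDR = 0.29). *Cer1*, an antagonist of Nodal and BMP, was at 11.0, 4.20, and 9.30 CPM and had no read in iPSCs (FDR = 0.36). *Fgf5* was at 5.80, 4.20, and 14.7 CPM against 0.825 and 3.21 CPM (FDR = 0.70), *T* (brachyury) at 4.04, 0, and 12.9 CPM against 0.619 and 0 CPM (FDR = 0.50), and *Otx2* overlapped. None of 17 Wnt target genes was called, with a median of 0.95. None was called either among 43 germline genes (median -0.71), 21 epithelial genes (0.74), 14 epidermal genes (1.35), or 19 primitive endoderm genes (0).

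The same contrast in MKOS reprogramming, with a cassette that carries the factors in the order *Myc*, *Klf4*, *Oct4*, and *Sox2*, shared no library with OKMS. According to the study, the MKOS cassette holds the long form of *Klf4*, and cassettes with the short form gave less KLF4 protein. Factor order and *Klf4* form therefore cannot be told apart between the cassettes. In MKOS 335 of 15630 genes were called (2.14%), 206 higher in 3NG+ cells (1.32%) and 129 lower (0.825%). Of the 49 genes higher in OKMS 3NG+ cells, 45 were above 0 in MKOS and 23 were called higher there, which is 46.9% of the 49. Of the 47 lower genes, 37 were below 0 in MKOS and 20 were called lower (42.6%). The share with the same sign over all genes tested was not computed. Both contrasts came from a single fit and filter, so genes near 0 in the same group of both cassettes share a sign largely through the filter. In all, 43 genes were called in the same direction in both cassettes, which is 44.8% of the genes called in OKMS and 12.8% of those called in MKOS. Matrix and *Zscan4* genes were in this group. *Mgp* had a log2 fold change of 7.67 ± 0.99 in MKOS (FDR = 4.3e-06), *Col3a1* of 7.53 ± 0.80 (FDR = 3.6e-08), *AI662270* of 5.68 ± 0.85 (FDR = 4.7e-05), and *Zscan4d* of -12.49 ± 1.40 (FDR = 6.3e-06), with no *Zscan4d* read in any MKOS 3NG+ library. In the fibroblast list 14 genes were called higher and in the 2-cell-like list 7 lower. Of the 15 macrophage genes 3 were also called higher in MKOS, with a median log2 fold change of 5.58 and a summed level of 98.6 to 1074 CPM in MKOS 3NG+ cells against 24.8 and 51.6 CPM in MKOS iPSCs, and their part in the MKOS changes was not tested.

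**Figure D5:**
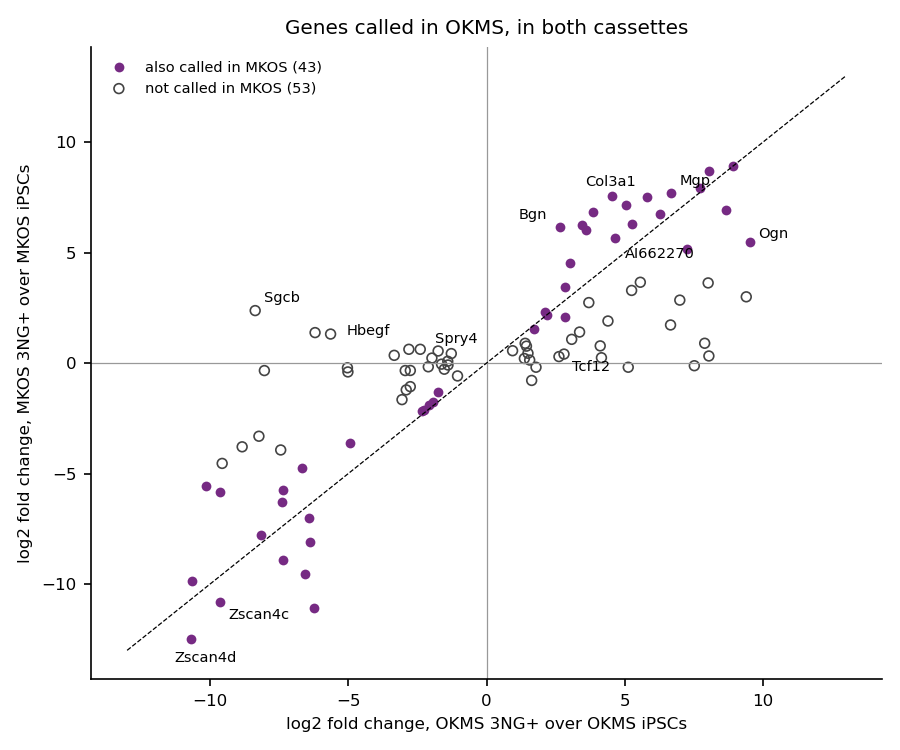
Log2 fold change of 3NG+ cells over iPSCs in OKMS (horizontal axis) and in MKOS (vertical axis) for the 96 genes called in OKMS, with the genes also called in MKOS marked, and with lines at 0. 45 of the 49 higher genes and 37 of the 47 lower genes have the same sign in MKOS, and *Hbegf* and *Spry4* lie near 0 there (0.62 each). The share over all genes tested was not computed.

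The signaling genes did not pass the test in MKOS. *Id1* was at -1.07 ± 0.63 (FDR = 0.45), *Socs3* at -1.21 ± 0.64 (FDR = 0.38), *Dusp6* at -0.28 ± 0.37 (FDR = 0.81), and *Spry4* and *Hbegf* each at 0.62 (FDR = 0.61). The test of the difference between cassettes called 10 genes (0.064%), and *Hbegf* was the single gene of the 96 among them (-3.43 on the log2 scale, FDR = 0.048). For *Spry4* the difference was -3.02 ± 0.72 (FDR = 0.092), for *Tcf12* 2.39 ± 0.58 (FDR = 0.092), and for *Id1* -1.69 ± 0.92 (FDR = 0.55). At an unadjusted p under 0.05, 1564 genes differed between the cassettes.

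With 3 against 2 libraries, an exact permutation test of a single gene cannot give a two-sided p below 0.1, so each call rests on the spread that the model estimates from all libraries.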

How the data were processed

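The authors sequenced 5′ ends of transcripts by the STRT method and deposited raw read counts per transcript, repeat type, and spike-in RNA, without normalization. The processing notes name Bowtie 0.12.7 and mm10, the methods of the study mm9, and the contigs of the table are those of mm10. The deposited counts of 24264 transcript rows were used, reads with several positions included, and no per-sample column was left out. In edgeR 4.0.16 (R 4.3.3), filterByExpr left 15630 genes, counts were scaled by TMM, and all 48 libraries entered a single quasi-likelihood fit with a term per condition (20 in all). The threshold was an FDR of 0.05 after Benjamini-Hochberg adjustment. DESeq2 1.42.0 and the other alternatives of the closing section were compared with this fit. Fold changes from counts of 0 depend on the prior count, and bounds were computed against 3 reads per group. Samples were grouped by their titles. The members and gene lists were chosen with earlier results of these data known. Named genes were the 15 largest called changes in each direction with ranges apart, a mean of at least 5 CPM in the higher group, and at least 90% unique reads, all called list members, 13 fixed genes of the sort and the pluripotency network, and the 10 lowest FDRs of the difference between cassettes. Other genes were chosen after their values were seen. Tables and figures were made with Python 3.11.15, pandas 2.3.3, and Matplotlib 3.10.9.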

Additional observations from a re-analysis of the deposited data

Results flagged for a closer look

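The change from iPSCs to 3NG+ cells differed between OKMS and MKOS in 10 genes by the test of the difference itself (edgeR's quasi-likelihood test, FDR of at most 0.05), given here as OKMS minus MKOS on the log2 scale.

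3 of the genes are on the Y chromosome. *Eif2s3y* (-9.82, FDR = 2.0e-15) was at 164 to 215 CPM in OKMS 3NG+ cells, 216 and 258 CPM in OKMS iPSCs, and 125 to 189 CPM in MKOS 3NG+ cells, but at 0.311 and 0 CPM in MKOS iPSCs. *Uty* (-8.81, FDR = 0.00011) had no read in either MKOS iPSC library and was at 7.15 to 17.2 CPM in the other 3NG+ and iPSC libraries of both cassettes. *Ddx3y* (-3.95, FDR = 0.0010) was at 3.22 and 0 CPM in MKOS iPSCs. According to the study, the transgenic MEFs came from chimeric embryos made with the targeted TNG MKOS ESCs, so cassette-carrying cells descend from that line. Why MKOS iPSCs had few or no Y-linked reads was not tested. In MKOS this Y-linked difference and the step from 3NG+ cells to iPSCs cannot be told apart from these values.

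*Grb10* (-4.27, FDR = 0.0042), an imprinted inhibitor of growth factor signaling, was at 5.58 to 9.09 CPM in OKMS 3NG+ cells and 8.02 and 10.5 CPM in OKMS iPSCs, whereas MKOS 3NG+ cells were at 27.2 to 108 CPM and MKOS iPSCs at a mean of 5.601 CPM. *Pgk1* (2.23, FDR = 0.0052), a glycolytic enzyme with 32.1% unique reads, and *Ldhb* (4.03, FDR = 0.018), a lactate dehydrogenase subunit, were lower in MKOS 3NG+ cells than in MKOS iPSCs, and overlapped in OKMS. For *Ldhb* the values were 345 to 671 CPM in OKMS 3NG+ cells and 22.1 to 52.0 CPM in MKOS 3NG+ cells. *Spink2* (-6.52, FDR = 0.037) was at 14.3 to 21.5 CPM in MKOS 3NG+ cells and at 1.64, 0, and 0 CPM in OKMS 3NG+ cells. *Hbegf* (-3.43, FDR = 0.048) was called lower in 3NG+ cells than in iPSCs in OKMS (-2.81) and was at 0.62 in MKOS, where it was not called. *Pqlc1* (-3.76, FDR = 0.048) was called in neither cassette, with log2 fold changes of -1.79 in OKMS (FDR = 0.17) and 1.98 in MKOS (FDR = 0.052). *Armcx4* (2.71, FDR = 0.048) was at 13.6 to 17.5 CPM in OKMS 3NG+ cells against 2.73 to 4.83 CPM in MKOS 3NG+ cells.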

How the results depend on the processing

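The 96 called genes (49 higher, 47 lower) became 197 with DESeq2's Wald test (110 and 87), 384 without the filter on low counts (222 and 162), 58 with only the 5 libraries compared (21 and 37), 288 against iPSCs in 2i medium (188 and 100), and 280 against both kinds of iPSCs (202 and 78). With only the 10 3NG+ and iPSC libraries 30 genes were higher, and without transcripts of under 50% unique reads, an alternative chosen after seeing the data, 25 were lower. Leaving out a library gave 10 to 148 genes, 9 to 70 higher and 1 to 78 lower. The 335 genes of MKOS became 567, 799, 757, and 741 with the Wald test, no filter, 2i medium, and both kinds of iPSCs, 213 with the 10 libraries, and 119 to 359 without a library. The 10 genes that differed between cassettes became 74 with the Wald test, 228 without the filter, 28 with both kinds of iPSCs, 4 with the 10 libraries, 20 with the replicate block, and 3 to 32 without a library. The cause of these changes was not tested. Size factors of DESeq2 and leaving out mitochondrial transcripts lost none of the 96 calls. Other settings called different genes as well as different numbers. With only the 5 libraries compared, 16 of the 49 higher and 21 of the 47 lower genes were called again. With only the 10 3NG+ and iPSC libraries these counts were 22 and 26. Against iPSCs in 2i medium they were 23 and 6, and against both kinds of iPSCs 37 and 25. With the Wald test they were 49 and 42, and without the filter 48 and 46.

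Same-numbered deviations correlated at -0.0032 and -0.0088 over 15630 genes, which gave no sign that replicate numbers pair the OKMS groups compared. With so few iPSC libraries this check is weak, and it does not show that the samples are unpaired. Pairing of the sorted cells with the preceding *Nanog*-GFP- population was not tested, and the tests between those populations took the libraries as unpaired. With the replicate block 119 genes were called (71 higher, 48 lower), and 498 in MKOS, and 48 of the 49 higher and 38 of the 47 lower genes were called again.

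Of 939 values for 63 named genes, 711 kept their direction and side of the threshold, 180 missed it, 14 passed it newly, 26 values of genes not called moved or changed sign, and 8 changed direction. Against iPSCs in 2i medium the log2 fold change was -1.85 for *Pglyrp1*, -0.0086 for *Tmcc1*, 2.38 for *Id1*, 4.83 for *Spry4*, 2.43 for *Dusp6*, and 0.99 for *Peg10*, and against both kinds of iPSCs it was 1.22 for *Spry4* and 0.45 for *Dusp6*. The depth of 3NG+ replicate 2 limits what can be said of genes below 2.10 CPM there.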

Other observations

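The metabolic and stress lists given here held no gene called between OKMS 3NG+ cells and iPSCs. None was called of 22 glycolysis genes (median log2 fold change -0.0021), 21 cholesterol synthesis genes (0.08), 22 amino acid response genes (0.09), 15 metallothionein and oxidative stress genes (0.21), 24 interferon-stimulated genes (0.36), 23 immediate early and heat shock genes (-0.17), or 21 p53 and cell-cycle inhibitor genes (-0.37), beside a median of 0 over all genes. The same held for 15 Nodal pathway genes (0.17), 7 genes of the *Dlk1-Dio3* cluster (-0.36), 13 DNA methylation and TET genes (-0.06), and 34 Hox genes (0). A list without a call is not shown to be equal in both groups, and some summed levels did not overlap. Nodal pathway genes summed to 693, 629, and 746 CPM in 3NG+ cells and to 1143 and 1324 CPM in iPSCs, although their median was above 0. The *Dlk1-Dio3* sum was also lower in 3NG+ cells. Metallothionein and oxidative stress genes were higher, at 8477, 8108, and 8521 against 7212 and 6639 CPM, as were immediate early and heat shock genes.

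Some genes called higher in 3NG+ cells had reads in only part of the libraries and were not named by the rule. *Kdm5d*, a histone demethylase on the Y chromosome, was at 13.4, 0, and 4.15 CPM in 3NG+ cells and had no read in iPSCs (log2 fold change 8.65 ± 1.95, FDR = 0.031), whereas the Y-linked *Eif2s3y* was at 216 and 258 CPM in the same iPSC libraries. *Tbx18*, a mesenchymal T-box gene, was at 8.07, 0, and 2.86 CPM in 3NG+ cells and had no read in iPSCs (8.01 ± 1.89, FDR = 0.035). Both were called in 2 of the 5 fits that left out a library, and neither without 3NG+ replicate 1 or without either iPSC library.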
